A study of Mus musculus with 2 samples.

Results

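The proteasome genes are the subunits of the 20S core, of the 19S regulatory particle and of the alternative activators, with the factors that assemble or bind them. They were taken as the genes on the array whose RefSeq accession resolves to a symbol that starts with Psm, a letter from a to g and a digit. This gave 50 genes, measured by 61 probes, of 20887 named genes and 55679 gene probes. Of the 50 genes, 48 encode subunits or direct partners of the proteasome, and 2 (Psmc3ip and Psme3ip1) match by name only. The reference lists 57 such symbols, 51 of them coding.

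RNA came from TCRαβ+CD8αα+ intraepithelial lymphocytes (IELs) of the small intestine, sorted from C57BL/6 mice aged 8 to 12 weeks, with males and females pooled. One group is labelled Rbpj f/f and control, where the study's text describes control mice as Rbpj+/+ with CD4-Cre. The other is labelled CD4-Cre Rbpj f/f and is called Rbpj-/- here, so that the floxed Rbpj gene, which encodes the DNA-binding partner of Notch, is removed where the Cd4 promoter has driven Cre, which in T cells begins in the thymus. For each genotype, RNA of several isolations was pooled and hybridized to 1 array, so 2 arrays were compared. Having a single array for each genotype limits the precision and allows no test across animals, and every value below is without a replicate.

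The 20S core is a barrel of alpha and beta rings, in which Psmb5, Psmb6 and Psmb7 carry the proteolytic sites. In lymphocytes and in cells exposed to interferon-γ, Psmb8, Psmb9 and Psmb10 take their places and form the immunoproteasome, whose cleavage pattern favors peptides that fit major histocompatibility complex class I molecules. The 19S particle recognizes, unfolds and feeds ubiquitinated proteins into the core, whereas the PA28 activators open the core without ubiquitin.

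The 3 immunoproteasome genes and Psme1, which encodes PA28α, are shown by the 250 bases before their RefSeq transcription start site. They are among the genes that interferon-γ is known to induce together, and Rbpj binds DNA. Psme2, which encodes PA28β and is induced with them, is not printed. Sequences are given 5′ to 3′ on the strand of the gene, from RefSeq in build GRCm38.p6, and capitals mark the letters TGGGAA, the core hexamer that Rbpj binds, or the same hexamer on the opposite strand, TTCCCA.
Psmb8, chr17:34197945-34198194, plus strand: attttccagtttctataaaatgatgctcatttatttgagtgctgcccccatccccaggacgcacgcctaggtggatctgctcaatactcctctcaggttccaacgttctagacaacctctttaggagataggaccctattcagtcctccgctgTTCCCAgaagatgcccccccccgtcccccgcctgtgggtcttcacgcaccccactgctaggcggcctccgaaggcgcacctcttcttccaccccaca
Psmb9, chr17:34187331-34187580, minus strand: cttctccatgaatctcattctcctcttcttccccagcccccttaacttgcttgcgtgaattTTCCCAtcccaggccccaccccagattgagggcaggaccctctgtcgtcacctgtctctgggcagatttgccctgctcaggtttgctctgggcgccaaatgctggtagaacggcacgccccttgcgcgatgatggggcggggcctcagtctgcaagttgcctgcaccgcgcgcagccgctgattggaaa
Psmb10, chr8:105938393-105938642, minus strand: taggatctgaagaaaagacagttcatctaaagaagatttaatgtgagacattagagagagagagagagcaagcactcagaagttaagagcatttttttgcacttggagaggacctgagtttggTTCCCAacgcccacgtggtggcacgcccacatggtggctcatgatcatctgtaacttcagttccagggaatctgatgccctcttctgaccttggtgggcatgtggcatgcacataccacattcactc
Psme1, chr14:55578244-55578493, plus strand: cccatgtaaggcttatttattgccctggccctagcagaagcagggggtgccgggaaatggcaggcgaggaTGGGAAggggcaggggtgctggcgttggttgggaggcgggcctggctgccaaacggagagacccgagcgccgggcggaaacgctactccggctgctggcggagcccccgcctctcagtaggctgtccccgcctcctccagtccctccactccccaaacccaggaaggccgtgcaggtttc
Each of these windows held the hexamer 1 time, at bases -97 to -92 before the start site of Psmb8, -189 to -184 of Psmb9, -127 to -122 of Psmb10 and -180 to -175 of Psme1. A match of letters is a description and not a binding site. Over windows of 300 bases, from 250 before to 50 after the start site and read on both strands, the hexamer stood in 12 of the 43 windows available for 40 of the proteasome genes (27.9%) and in 25.6% of all 32851 promoter windows. Of the 3 such windows of Psme1 and Psme2 together, 2 held it, with the match of Psme2 at -29 to -24. Not every window of Psme2 therefore held the hexamer.

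The letters of the interferon-γ activated site, TTCNNNGAA, were in the windows of Psmb8, Psmd2 and Psmg1, which is 6.98% of the windows of proteasome genes against 8.3% of all windows. In Psmb8 this match ran from -97 to -89 and overlapped the Rbpj hexamer. The letters of the interferon-stimulated response element (GAAA, 2 bases of any kind, then GAAA again) were in 5 windows (11.6%, against 3.44% of all), those of Psmb3, Psmd4, Psmd9, Psme1 and Psmg4, and in 0 of the 3 immunoproteasome windows. Antioxidant-response letters, TGACNNNGC, which the Nfe2l factors that drive subunit genes bind, were in 6 windows (14.0%, against 12.4%), including those of Psmb5 and Psmb6. CCAAT was in 14 windows (32.6%, against 37.4%).

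In the genome, Psmb9 and Psmb8 lie on chromosome 17 in the major histocompatibility complex, with Tap1 between them and Tap2 after Psmb8 in the order of coding genes. Psme1 and Psme2 lie on chromosome 14 with Emc9 between them, and Psmb10 lies apart on chromosome 8. Both pairs therefore share a neighborhood, which is a fact of position and was known when the genes were chosen.

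Signals are log2 values of the background-subtracted intensity minus the 75th percentile of each array (8.99 on the control array and 7.82 on the other), and differences are the array labelled Rbpj-/- minus control. Of 59305 gene spots, 57.2% were well above background on the control array and 49.7% on the array labelled Rbpj-/-, with signals at a median of 9.47 and 5.78 times background. The SD of a difference that repeated spots allow was 0.13, which covers technical error within an array and not the spread between mice, and the scanner software gave an error of 0.20 for the difference of each proteasome gene measured. The signal of Rbpj itself was 1.96 on the control array and 2.28 on the array labelled Rbpj-/- for 1 probe, a difference of 0.32, and 0.82 for the other probe, so Rbpj was not lower under percentile scaling, while spike-in scaling gave -0.80 and -0.30. The sources used here do not place these probes inside or outside the floxed exons, and they do not check the label.

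Of the 48 subunits and partners, 46 had signals well above background on each of the arrays, and 0 were saturated. Psma8, the testis form of an alpha subunit, and Psmb11, the catalytic subunit of the thymoproteasome of cortical thymic epithelium, were not well above background on either array. In the 46, the scaled signal was higher on the array labelled Rbpj-/- for 40 genes and lower for 6, by a median of 0.23 with an SD of 0.27 across genes, whereas with the spike-in controls set equal all 46 were lower. The other settings left between 29 (normexp background correction) and 40 of the 46 higher. Of the 40, 6 turned lower under quantile normalization, 6 under cyclic loess, 9 under median scaling and 11 under normexp. The quantile values were -0.20 for Psma2, -0.18 for Psmb4, -0.21 for Psmc3, -0.01 for Psmb5, -0.08 for Psmc2 and -0.01 for Psmd4. Of all 13513 genes measured, 48.9% were higher, with a median of -0.01. Relative to that median, 40 of the 46 were above, beside 36 to 40 in the other settings except normexp (29) and no filter or bound (19). More than 1.5-fold higher were 3 members (Psmb9, Psmb3 and Psmb8), against 20.1% of all genes, and more than 1.5-fold lower were 0, against 15% of all genes. Of the 3, Psmb9 alone passed 1.5-fold with quantile normalization, cyclic loess or normexp, Psmb9 and Psmb3 did with median scaling, and 0 did with spike-in scaling. Past 2-fold were 0 in either direction, against 12.3% of all genes higher and 5.05% lower. The share of all genes more than 1.5-fold higher was larger among dim genes, as given below.

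Before scaling, all 46 had lower intensity on the array labelled Rbpj-/-, at 0.316 to 0.813 times the control with a median of 0.521. RNA input was recorded as 150 ng for both arrays, so they compare equal amounts of RNA and not equal numbers of cells. Which of these descriptions holds per cell cannot be told. Fewer cells of a type, less RNA of these genes per cell and less labelled material on the array cannot be told apart. Scaling to the median of all probes lowered the median of all genes by 0.17 and scaling on spike-in controls lowered it by 1.09, so group values are also given relative to the median of all genes. For the immunoproteasome group that relative value was 0.75 with percentile scaling, 0.74 with median scaling and 0.71 with spike-in scaling.

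**Figure D1:**
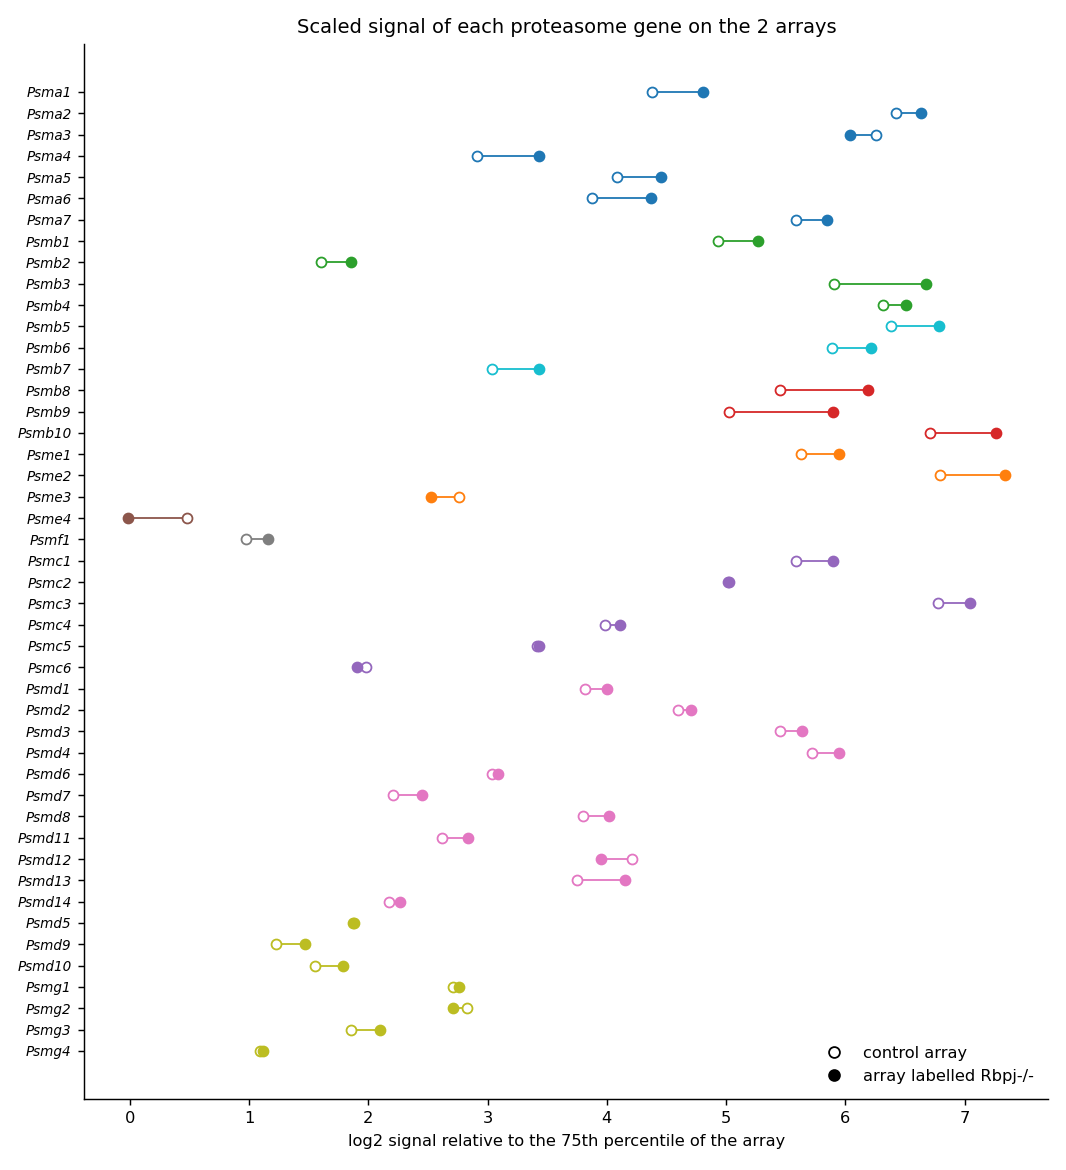
Scaled log2 signal (horizontal axis, relative to the 75th percentile of the array) of each proteasome gene on the control array (open circles) and the array labelled Rbpj-/- (filled circles), ordered by group. The points of Psmb8, Psmb9 and Psmb10 lie apart in the same direction, whereas those of several 19S ATPases coincide, and with spike-in scaling all filled points would lie to the left of the open ones.

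Psmb8 replaces Psmb5 in the immunoproteasome and cuts after hydrophobic residues. Its signal was 5.46 on the control array and 6.19 on the array labelled Rbpj-/-, which is 1.66-fold higher, and 83.0% of all genes had a lower difference. Psmb9, which replaces Psmb6, had 5.03 and 5.90, a difference of 0.87 or 1.83-fold and the highest of all proteasome genes. Psmb10, which replaces Psmb7, had 6.71 and 7.27, so that its difference of 0.56 (1.47-fold) missed the 1.5-fold mark. The immunoproteasome group had a median difference of 0.73, or 0.75 above the median of all genes, the highest median of any proteasome group. It remained the group with the highest median under all 11 settings of the processing. Scaling by a constant, the authors' table and the filters cannot reorder these groups, and keeping outlier spots hardly moves them. The order could therefore change only with quantile normalization, cyclic loess, normexp or means over probes. The differences themselves turned to -0.39 for Psmb8, -0.25 for Psmb9 and -0.57 for Psmb10 when spike-ins were set equal. Relative to all genes, the lowest values over the settings were 0.48 for Psmb8, 0.62 for Psmb9 and 0.11 for Psmb10. These differences were not extreme among the 13513 genes, where Psmb9 ranked 1949 and Psmb8 ranked 2298 from the highest.

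The constitutive counterparts were also higher, each by less than 1.5-fold under percentile scaling, and lower under spike-in scaling. Psmb5, the chymotrypsin-like subunit, had 6.38 and 6.78, with 0.41 for its main probe and 0.39 for its other one. Psmb6, the caspase-like subunit, had 5.89 and 6.21, a difference of 0.33. Psmb7, the trypsin-like subunit, had 3.04 and 3.43, a difference of 0.40. The SD across these 3 values was 0.04, but 0.22 with quantile normalization, which gave -0.01 for Psmb5, 0.04 for Psmb6 and 0.40 for Psmb7, and 0.15 with cyclic loess.

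Each immunoproteasome subunit was then set against the subunit it replaces, as the difference of the 2 log2 differences, which no scaling by a constant can move. This was 0.54 for Psmb9 against Psmb6 (1.46-fold), 0.33 for Psmb8 against Psmb5 (1.25-fold) and 0.16 for Psmb10 against Psmb7 (1.12-fold). The technical SD of such a value is 0.18, so that Psmb10 and Psmb7 differed by less than it. Quantile normalization gave -0.34 and cyclic loess -0.13 for Psmb10 against Psmb7, turning its direction, while the other pairs stayed positive in all settings.

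**Figure D2:**
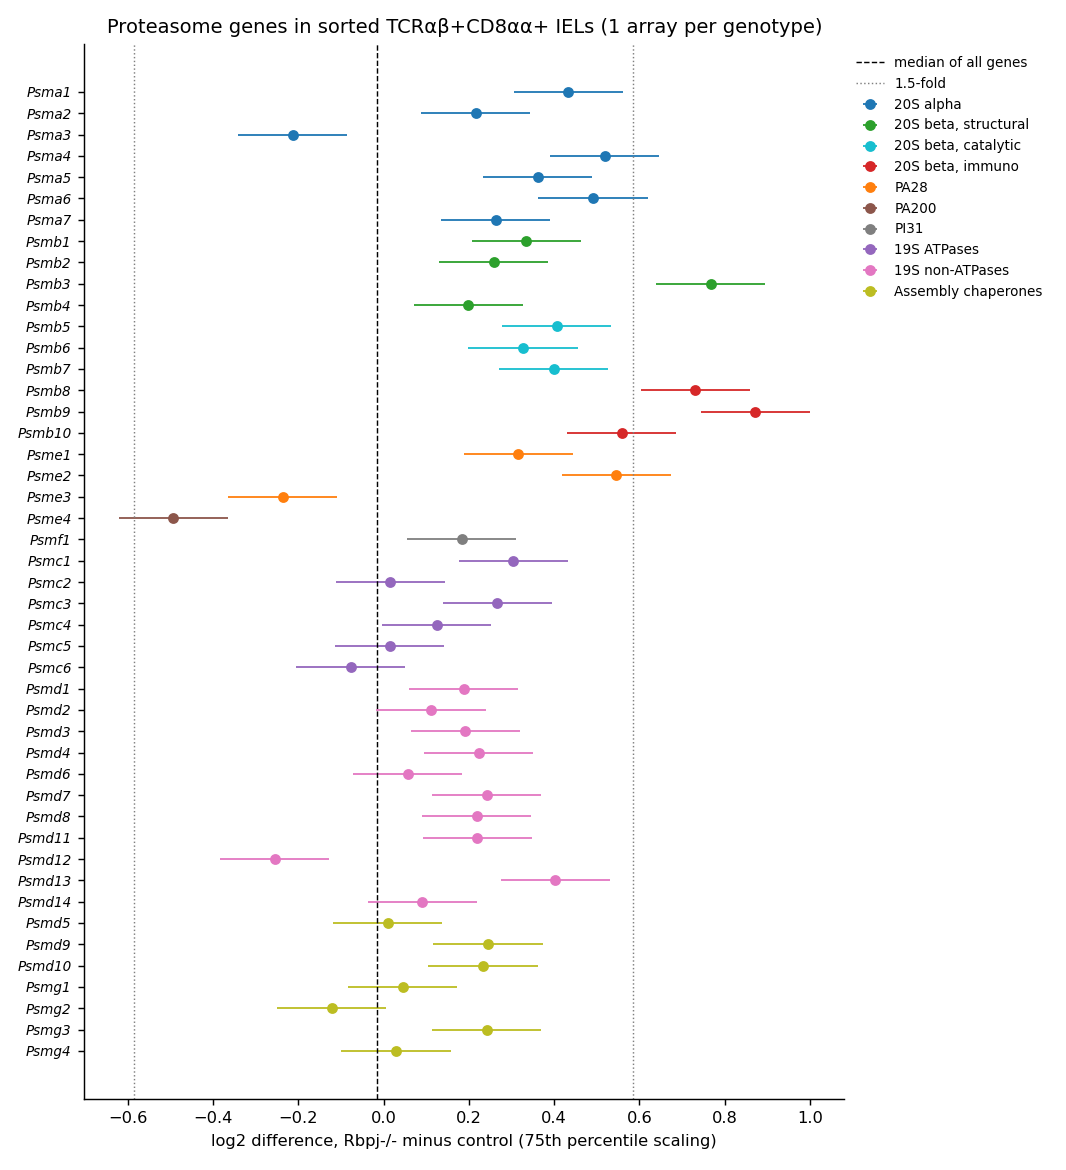
Difference in log2 signal of each proteasome gene (horizontal axis, array labelled Rbpj-/- minus control, 75th percentile scaling), by group, with bars for the technical SD of 0.13 and lines at the median of all genes and at 1.5-fold. Psmb9, Psmb3 and Psmb8 lie past the upper 1.5-fold line and no gene past the lower one, whereas spike-in scaling would put every point below 0.

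The other beta subunits, which have no proteolytic site of their own in the mature core, were Psmb1 with 4.93 and 5.27, Psmb2 with 1.60 and 1.86, Psmb3 with 5.91 and 6.67, and Psmb4 with 6.31 and 6.51. Psmb3 stood out with a difference of 0.77 (1.70-fold), a size between those of Psmb8 and Psmb9, although it is part of the constitutive and of the immune core alike. Without it the constitutive beta subunits ranged from 0.20 to 0.41, and with it their median was 0.33, which is 0.35 above all genes. Relative to all genes, Psmb3 stayed between 0.47 and 0.78 over the 11 settings. Psmb3, like Psmb8, Psmb9 and Psmb10, has 1 probe on the array, so no other probe checks these 4 genes.

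The alpha subunits form the outer rings and the gate of the core. Of the 7 measured, 6 were higher on the array labelled Rbpj-/- by percentile scaling and 0 by spike-in scaling. The highest difference was that of Psma4, 0.52 from 2.91 and 3.43, and its other probe gave 0.40. Psma6 had 3.88 and 4.37, a difference of 0.49, and Psma1 had 4.38 and 4.81, a difference of 0.43. Psma5 differed by 0.36, Psma7 by 0.26 and Psma2 by 0.22. Psma3 ran the other way, with 6.25 and 6.04, a difference of -0.21, and it was below the median of all genes in all 11 settings (-0.49 to -0.20). Settings that shift all genes by a constant could hardly change this. The alpha group had a median of 0.36, beside 0.33 for the constitutive beta genes.

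PA28 is a ring that caps the core. Psme1 and Psme2 encode its interferon-induced subunits α and β, and Psme3 encodes the nuclear PA28γ. The probe of Psme1 was spotted 10 times on each array, which makes it the proteasome gene with repeated measurements. On the control array 9 spots were used, with a lowest value of 5.58, a median of 5.63 and a highest of 5.67. On the array labelled Rbpj-/- 10 spots were used, with 5.91, 5.95 and 5.97. The ranges did not overlap, and the spot SDs were 0.028 and 0.025 around a difference of 0.32, so the repeats of this probe differed by far less than the arrays. Spots of 1 array share the hybridized RNA, and they say nothing of the spread between mice or pools.

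**Figure D3:**
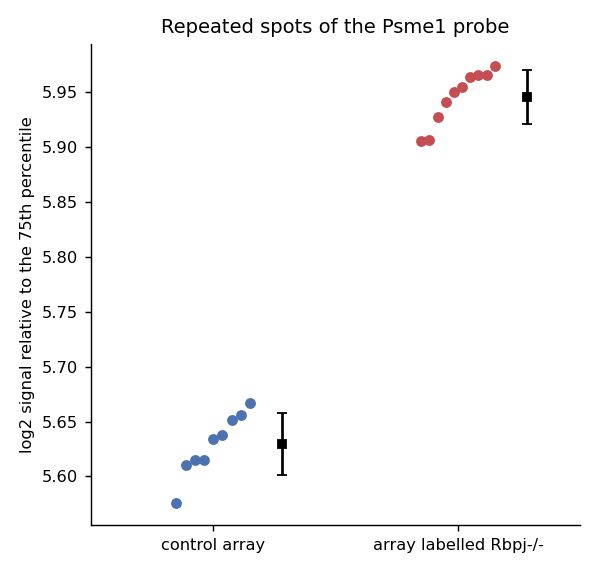
Scaled log2 signal (vertical axis, relative to the 75th percentile of the array) of each used spot of the Psme1 probe on the control array (9 spots) and the array labelled Rbpj-/- (10 spots), with squares and bars for mean and SD over spots. The spots of the control array lie between 5.58 and 5.67 and those of the other between 5.91 and 5.97, an order that spike-in scaling turns.

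Psme2 had 6.79 and 7.34, a difference of 0.55 (1.46-fold), and its other probe gave 0.51. Psme3 had 2.76 and 2.53, a difference of -0.24. The interferon-induced subunits stood above Psme3 by 0.55 for Psme1 and 0.78 for Psme2, on a technical SD of 0.18. These gaps were 0.28 and 0.22 with quantile normalization and 0.32 and 0.44 with cyclic loess. Psme4 encodes PA200, another cap of the core, known for acetylated histones as substrates in the germline. Its difference was -0.49, from 0.48 and -0.01, or 1.41-fold lower, and its other probe gave -0.41. This was the lowest of all proteasome genes, except that Psma3 was lowest with quantile normalization (-0.54) and cyclic loess (-0.44). The differences of Psme2 and Psme4 were 1.04 apart, but 0.49 with quantile normalization and 0.61 with cyclic loess. Psmf1, which encodes the inhibitor PI31, had 0.98 and 1.16, a difference of 0.18. Relative to all genes, Psme4 stayed between -0.75 and -0.36 and Psme3 between -0.49 and -0.14 over the 11 settings, while Psme2 ranged from 0.072 to 0.56 and Psme1 from 0.064 to 0.33. With quantile normalization the differences were 0.03 for Psme2 and 0.09 for Psme1, both below the technical SD of 0.13.

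The base of the 19S particle is a ring of ATPases that unfold substrates. The 6 ATPase genes had a median difference of 0.07, close to the -0.01 of all genes, and ranged from -0.08 for Psmc6 (1.98 and 1.90) to 0.30 for Psmc1 (5.59 and 5.89). Psmc2 (0.02) and Psmc5 (0.01) were nearly level between the arrays, Psmc4 differed by 0.12 and Psmc3 by 0.27. The other probe of Psmc1 gave 0.15.

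The 11 non-ATPase subunits with a Psm symbol had a median of 0.19 and ranged from -0.26 to 0.40. Among them Psmd13 had the highest difference, from 3.75 and 4.15. Psmd14, the deubiquitinase that clips ubiquitin chains from substrates, had 2.17 and 2.26, a difference of 0.09. Psmd4, a ubiquitin receptor, had 5.72 and 5.94, a difference of 0.22, and the scaffold subunits Psmd1 and Psmd2 differed by 0.19 and 0.11. Psmd12, a lid subunit, had 4.21 and 3.95, a difference of -0.26, although its dimmer probe gave 0.06. Over the 17 genes of the 19S particle with a Psm symbol, 15 were higher and 2 lower with a median of 0.19. Subunits without such a symbol, such as Sem1, were counted with the related genes. Of the 17 genes of the 20S core measured, 16 were higher and 1 lower with a median of 0.40. All of these 19S and 20S genes were lower under spike-in scaling. Without the immunoproteasome genes, the 14 core genes had a median of 0.35.

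Assembly factors bind the parts during their formation and leave the finished complex. The 20S chaperones Psmg1 (0.04), Psmg2 (-0.12), Psmg3 (0.24) and Psmg4 (0.03) and the 19S chaperones Psmd5 (0.01), Psmd9 (0.24) and Psmd10 (0.23) had a median of 0.04, the lowest of the groups except with quantile normalization, cyclic loess and normexp, where the 19S ATPases were lowest. The second probe of Psmd9 gave -0.14, a gap of 0.39 to the first and the largest among the 11 proteasome genes with 2 probes. Of these 11 genes, 9 had probes closer than 0.18 to each other, and 4 (Psmc2, Psmd9, Psmd12 and Psmg1) had probes of opposite sign. The genes matched by name only were Psmc3ip, a recombination factor, with 0.24 and Psme3ip1 with -0.39.

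Across the proteasome genes, brighter genes had higher differences, whereas over all genes the dimmest bin of signal had the highest median (0.48), followed by the brightest. Cutting the 12955 genes measured on both arrays into 8 bins of mean signal put 20 of the 46 proteasome genes into the brightest bin and 0 into the 3 dimmest. More than 1.5-fold higher were 22.7% to 45.1% of the genes in these 3 bins, beside 7.47% to 15.8% in the others. In the brightest bin the other genes had a median of 0.15, and 61.9% of its genes were higher on the array labelled Rbpj-/-, while the proteasome genes in it had a median of 0.31. In the next bin, with 11 proteasome genes, the medians were -0.06 for other genes and 0.22 for proteasome genes. They were -0.12 and 0.07 in the bin below, with 6, and -0.13 and 0.21 in the fifth from the dimmest, with 8. Psme4 stood alone in the fourth, where other genes had a median of -0.15. Across the 46 genes, the difference correlated with the mean signal by a Spearman rho of 0.48 and a Pearson r of 0.48, a description over genes that share both arrays. The part of brightness in the result was not tested.

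Genes that work with the proteasome were described from a list of 29 outside the Psm symbols, of which 28 were measured. Of these, 20 were higher and 8 lower, with a median of 0.17, although median scaling and quantile normalization left 14 higher and spike-in scaling 0. Of the ubiquitin genes, Ubb differed by 0.23 and Rps27a by 0.54. Pomp, the maturation factor of the core, had a difference of 0.37, and Sem1, a small subunit of the 19S lid, one of 0.42. The 6 genes for loading peptides onto class I molecules were all higher by percentile scaling, with a median of 0.27, and lower by spike-in scaling. Among them Tap1, the transporter gene between Psmb9 and Psmb8, had 2.17 and 2.66, a difference of 0.49, and Tap2 one of 0.21. The shuttles and receptors that bring ubiquitinated proteins to the proteasome had a median of -0.29, with Rad23b lowest at -0.36 (3.04 and 2.68). Nfe2l1, the factor that raises subunit genes when the proteasome is inhibited, differed by 0.20.

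The immunoproteasome genes are known targets of interferons, so interferon-induced genes outside the proteasome were read beside them. Of 17 listed, 16 were measured, 3 of them higher and 13 lower, with a median of -0.43. Irf1, which drives Psmb9 and Tap1, had 6.35 and 5.84, a difference of -0.51. Irf9, next but one to Psme2 in the genome, had a difference of -0.49. The 3 that were higher were Oasl2 at 2.33, Usp18 at 1.12 and Ifit3 at 0.40. The immunoproteasome and interferon lists had medians of opposite sign under percentile scaling. With spike-in scaling the interferon median was -1.55 and the immunoproteasome genes were lower too, so the signs were the same. The part of interferon in these values was not tested.

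**Figure D4:**
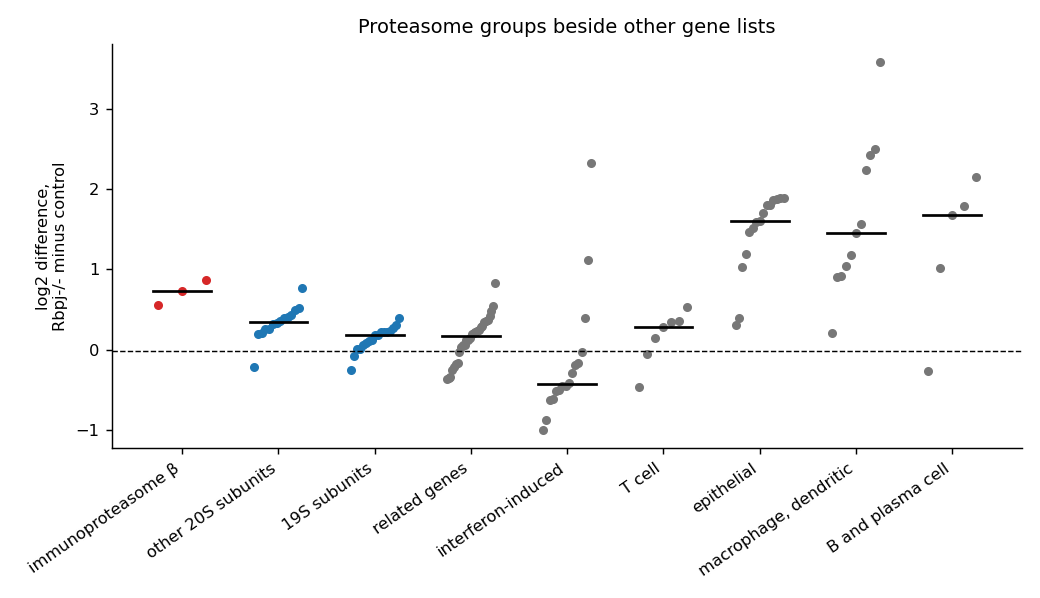
Difference in log2 signal of single genes (points; vertical axis, array labelled Rbpj-/- minus control, 75th percentile scaling) in the proteasome groups and in the other lists, with a bar at each median and a dashed line at the median of all genes. The immunoproteasome genes lie above most other proteasome genes and most interferon-induced genes, most epithelial markers lie higher still, and spike-in scaling would place all proteasome points below 0.

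T cell markers were present on both arrays. The 7 of 7 measured had signals from 1.35 to 8.16 on the control array and from 1.51 to 8.45 on the other, with a median difference of 0.29 and a range of -0.46 to 0.54. This median turned to -0.84 under spike-in scaling, to -0.25 under quantile normalization and to -0.07 under cyclic loess. Cd8a had 6.24 and 6.18. Cd8b1, which the gate removed, had -3.52 on the control array, where it was well above background, and -4.25 on the other, where it was not, and Cd4, also removed, had 1.67 and 1.80. Under percentile scaling, proteasome genes and T cell markers therefore had medians of similar size.

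Markers of other cells were higher on the array labelled Rbpj-/-. Epithelial markers were higher for 15 of 15 genes, with a median of 1.61, of which 12 stayed higher under spike-in scaling, and 0 of them were at background. Their summed signal, in multiples of the 75th percentile of the array, was 293 on the control array and 951 on the other. Of 12 macrophage and dendritic markers on the array, 9 had signals well above background on each array, with a median difference of 1.17, all of them higher. C1qa and C1qc were well above it on the array labelled Rbpj-/- alone, which fixes their direction, and Fcgr1 on the control array alone. With C1qa and C1qc at their bounds, 11 of 11 were higher, beside 7 of 12 under spike-in scaling, where Fcgr1 also has a bound, and 10 of 11 under quantile normalization or normexp. The signals of Itgax and Itgam, which T cells can also express, summed to 66.0 and 90.8, and those of the other 10 markers to 1.55 and 4.76. Of 9 B and plasma cell markers, 5 were measured and 4 were higher (3 under spike-in scaling), with sums of 26.5 and 59.2, and Cd79a, Pax5 and Blk were among those not well above background on either. A sort for TCRαβ+CD8αα+ cells would remove each of these cell types. Proteasome genes are used by all these cells, and the part of these markers in the proteasome values was not tested.

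**Figure D5:**
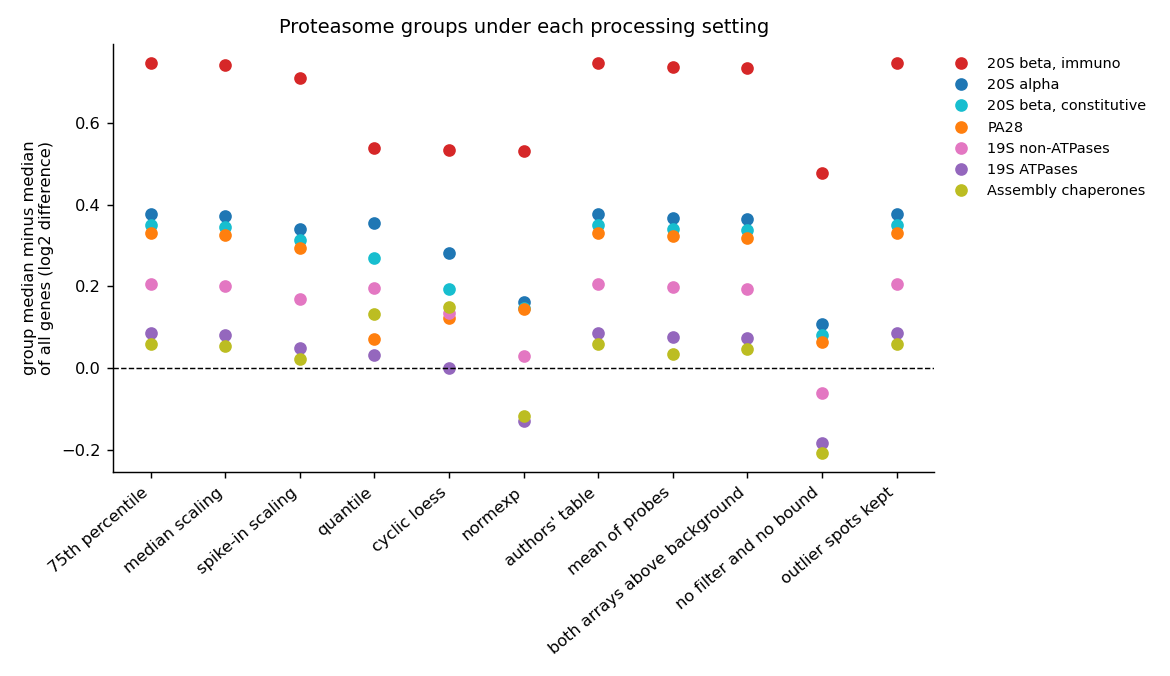
Median log2 difference of each proteasome group relative to the median of all genes (vertical axis, array labelled Rbpj-/- minus control) under each of 11 settings of scaling, background correction and filtering (horizontal axis). The immunoproteasome group is highest in each setting, from 0.48 to 0.75, while the order of the lower groups moves. Only quantile normalization, cyclic loess, normexp and means over probes could materially change the order of groups.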

How the data were processed

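RNA of sorted TCRαβ+CD8αα+ IELs was hybridized to 2 Agilent arrays of 1 color. Per the file headers, the authors' software (Feature Extraction 10.7.1.1) wrote the deposited intensity of each spot after background subtraction, with no scaling between arrays. The authors also deposited a table of log2 values, normalized and centred per probe. Its differences between the arrays depart from the percentile-scaled ones by a constant, and it gave an alternative. Control and outlier spots were left out, log2 intensity minus each array's 75th percentile over gene spots was averaged per probe, and each gene was given by its brightest probe. Probes were named through 29150 RefSeq accessions, of which 27509 matched. A gene was measured if at least 50% of its probe's spots were well above background on 1 or both arrays. Where this held on 1 array alone, the difference is a bound from the lowest signal well above background. Technical SDs came from 196 probes with at least 10 spots on both arrays.

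The members and lists were chosen with earlier results of these data known. Named genes were all members, with full values for catalytic subunits, PA28 and those past 1.5-fold, and of the related list the extremes and those past 1.5-fold where reported; other related and interferon genes were named after their values were seen. Alternatives were median, spike-in, quantile and cyclic loess scaling, normexp with an offset of 50, the authors' table, means over probes, and other filters. Python 3.11.15, numpy 2.4.6, pandas 2.3.3, scipy 1.17.1, matplotlib 3.10.9, R 4.3.3 and limma 3.58.1 were used, and the steps were tested on simulated data. Values of a few listed genes are left out here.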

Additional observations from a re-analysis of the deposited data

How the results depend on the processing

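With 1 array per genotype, no array can be left out and precision rests on repeated spots alone. No paired analysis was possible because each genotype has 1 array. The authors' table, the mean over probes, genes above background on both arrays and outlier spots kept left each proteasome group median, immunoproteasome pair and count of calls within the technical SD or 1.5 times. Differences in the authors' table equal the main ones shifted by -0.01, so its agreement was fixed in advance. The filter to both arrays could move no proteasome gene, since all 46 measured passed it. Shifts by a constant came from median scaling (all genes -0.18, proteasome genes 0.053, 3109 genes and 1 proteasome gene more than 1.5-fold lower) and spike-in scaling (all genes -1.10, proteasome genes -0.90, 10963 genes and 41 proteasome genes lower, 489 and 0 higher), which reversed Psmb3 to -0.36, Psmb8 to -0.39 and Psmb9 to -0.25. The median of all proteasome genes was 0.085 with quantile normalization and 0.057 with normexp. Proteasome genes more than 1.5-fold higher numbered 1 with quantile normalization, cyclic loess or normexp, in each case Psmb9.

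Relative to all genes, the immunoproteasome median was 0.54 with quantile normalization and 0.53 with cyclic loess and normexp, constitutive beta 0.19 with loess and 0.15 with normexp, PA28 0.072, 0.12 and 0.15 and related genes 0.045, 0.044 and 0.021 in these 3 settings. Normexp gave 0.16 for alpha, -0.13 for 19S ATPases, 0.030 for 19S non-ATPases and -0.12 for assembly. Psmb8 against Psmb5 was 0.50 with quantile normalization, and Psmb10 against Psmb7 was -0.34 with it and -0.13 with loess. The causes were not tested. Without filter or bound, which adds dim genes, the median of all genes was 0.25, 8074 genes were more than 1.5-fold higher. With Psma8 and Psmb11, which were at background, 5 of 48 proteasome genes were more than 1.5-fold higher and 21 lay above that median (3 and 19 of the 46 measured), and relative medians were 0.48 for the immunoproteasome, 0.11 for alpha, 0.082 for constitutive beta, 0.064 for PA28, -0.078 for related genes, -0.061 for 19S non-ATPases, -0.18 for 19S ATPases and -0.21 for assembly. The gene names of the array's own file were not run as an alternative.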
